A study of Mus musculus with 16 samples.

Results

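The genes described here are 36 mouse genes of glucose uptake, glycolysis, lactate handling and glycogen turnover, chosen by name from textbook pathways and not by their values. All 36 had a row among the 29806 genes counted and all 36 were among the 14179 genes with enough counts to test. They were measured by RNA sequencing in 2 sorted cell types of mouse bone marrow, with 4 libraries in each of 4 groups. Jak2V617F HSC are haematopoietic stem cells of mice carrying the Jak2V617F change, a substitution that leaves JAK2, the kinase below cytokine receptors, switched on. WT HSC are the same cell type from control mice with the genotype WT. Jak2V617F MPP3 are myeloid-biased multipotent progenitors, sorted as Fcgr-negative, from Jak2V617F mice, and WT MPP3 are the matching Fcgr-negative cells of WT mice. The promoter or Cre driver of the mutant allele, its zygosity, the age and sex of the mice and the number of animals behind a library are not stated by the labels. Per the labels, each replicate number marks a batch. Because nothing says that replicates came from separate animals, each p-value measures the spread between these libraries, which may be technical.

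Glycolysis splits glucose into pyruvate in the cytosol and yields ATP without oxygen. Lactate dehydrogenase then turns pyruvate into lactate, or the pyruvate dehydrogenase complex passes it to mitochondria, and pyruvate dehydrogenase kinases close that second route. Glycogen is a branched store of glucose that glycogen phosphorylases break down. Haematopoietic stem cells are known for their reliance on glycolysis in the low-oxygen marrow, and many genes of the pathway are targets of the hypoxia-inducible factor HIF-1. Several steps have more than 1 isoenzyme: LDHA favours lactate production and LDHB the reverse reaction, HK1, HK2 and HK3 phosphorylate glucose, and PYGM, PYGL and PYGB are the muscle, liver and brain forms of glycogen phosphorylase.

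Libraries held 33.4 to 41.5 estimated counts each, in units of 1000000, and 14439 to 16522 genes had a count. The sort was checked against marker genes. Summed HSC markers ran from 451 to 651 CPM in Jak2V617F MPP3 and from 663 to 897 CPM in WT MPP3, against 1251 to 1314 CPM in Jak2V617F HSC and 2418 to 2476 CPM in WT HSC. Summed progenitor markers were 3236 to 4913 CPM in Jak2V617F MPP3 and 3147 to 6395 CPM in WT MPP3, against 301 to 506 CPM in Jak2V617F HSC and 378 to 470 CPM in WT HSC. CPM are counts per 1000000 on TMM-scaled library sizes, and libraries are listed in the order of their replicate numbers. Log2 fold changes are given ± SE, and a gene was called changed at a Benjamini-Hochberg adjusted p under 0.05, over the 14179 genes, from the quasi-likelihood test of edgeR. Where groups are said not to overlap, the share of all genes tested that were separated in this way was not counted. In bulk RNA, fewer cells of a type and less RNA per cell cannot be told apart.

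Levels between genes were compared per length, in the deposited TPM. In WT HSC the highest were Ldha, at 1059 ± 44.6 TPM (SD, n = 4), and Gapdh, at 999.7 ± 123 TPM. Aldoa at 995 TPM, Pkm at 878 TPM and Eno1 at 839 TPM followed, and these 5 genes held the first 5 places in each of the 4 groups. Neighbours among them lay within or near their SD, so their order is not settled. Gapdh is uncertain besides: 38 near-identical copies, mostly processed pseudogenes with their own rows, took counts equal to 49.3% of its own. Gys1 overlaps Ruvbl2, Pfkfb2 overlaps Yod1, Pdha1 overlaps Map3k15 and Pfkp overlaps Pitrm1, and as no label states the strand setting of the counts, reads in those stretches may be split between the partners. The regulators stood at the other end. The bifunctional enzymes Pfkfb2, Pfkfb3 and Pfkfb4, which make and remove the activator of phosphofructokinase, had mean levels of 3.92, 11.8 and 6.45 TPM in WT HSC. Pdk4, a kinase that shuts pyruvate dehydrogenase, was last in every group, at 2.16 TPM in WT HSC.

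The effect of the mutant kinase on the pathway in stem cells was tested between Jak2V617F HSC and WT HSC. Transcripts for the glycolytic enzymes Tpi1, Pgk1 and Pgam1, for lactate dehydrogenase A (Ldha) and for the lactate carrier Slc16a1 rose in Jak2V617F HSC. Ldhb, Hk2 and the glycogen phosphorylase Pygm fell. These 5 higher and 3 lower calls are 22.2% of the 36 genes, against 7.3% of all genes tested (4.56% higher and 2.74% lower). The median log2 fold change over the 36 genes was -0.08, against -0.06 over all genes tested, with 15 genes above 0 and 21 below. An unadjusted p under 0.05 was reached by 18 of the 36 genes, and by 21.7% of all genes. These calls came from a fit without the batch. As a block the batch added Slc2a3, Hk3 and Pdk2 (lower) and Pdha1 (higher), with 9.83% of all genes then called.

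**Figure D1:**
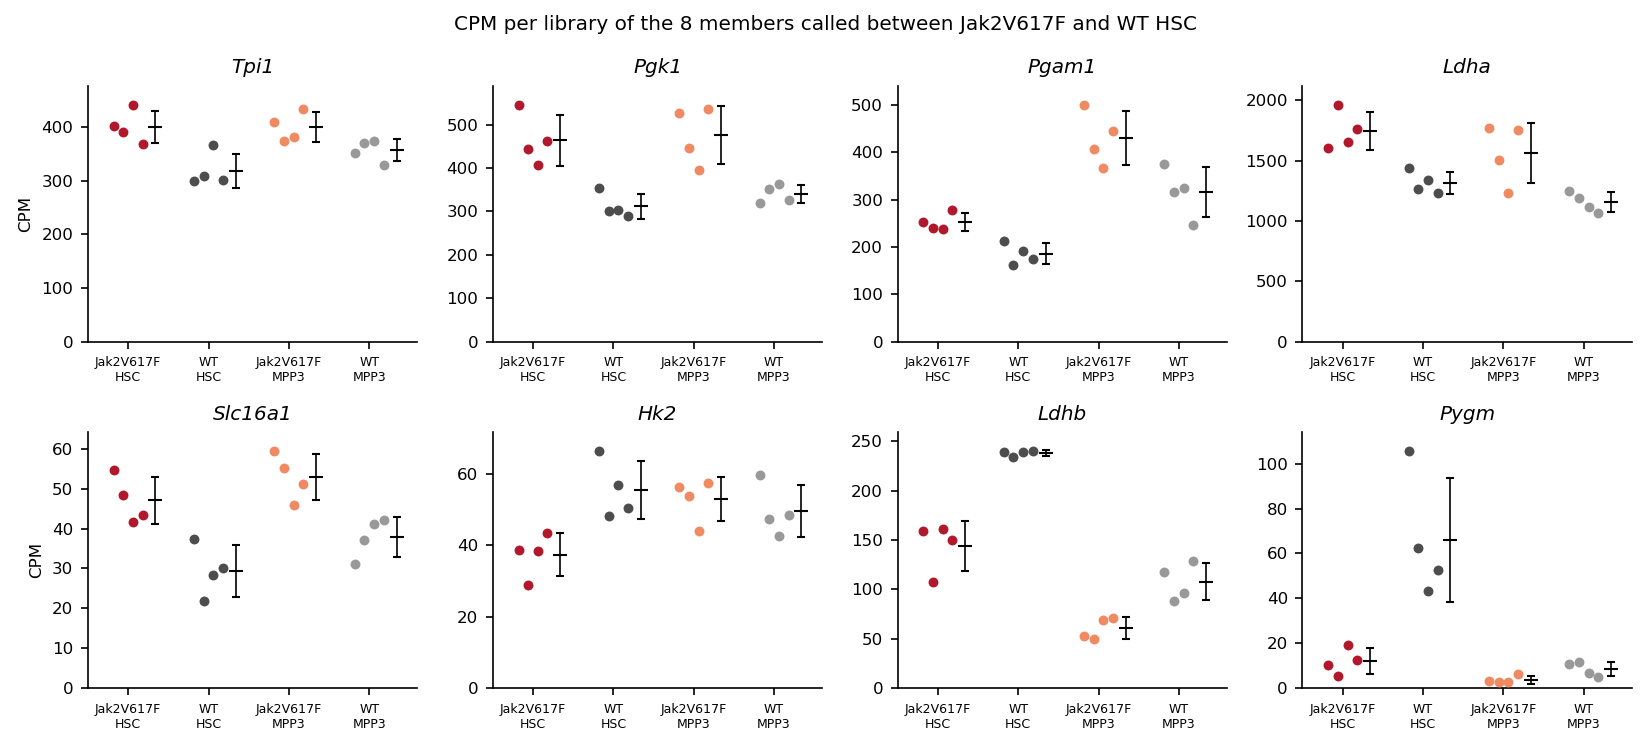
CPM per library (vertical axes, from 0) of the 8 genes called between Jak2V617F HSC and WT HSC, with points for libraries in replicate order and the mean ± SD to their right. In HSC no Jak2V617F point of these genes lies among the WT points, but the genes were chosen by their call on these libraries. In MPP3 Pgk1, Slc16a1 and Ldhb are also separated, and the other 5 are not.

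Glucose enters through GLUT1 (Slc2a1) and the high-affinity GLUT3 (Slc2a3). Slc2a1 had 51.2, 37.9, 56.8 and 49.2 CPM in Jak2V617F HSC, against 67.4, 90.6, 69.1 and 54.4 CPM in WT HSC. These libraries overlapped, and the log2 fold change of -0.53 ± 0.18 was not called (adjusted p = 0.0824). Slc2a3 had 185, 149, 155 and 212 CPM in Jak2V617F HSC, against 240.0, 252, 226 and 291 CPM in WT HSC. Its groups did not overlap, but the log2 fold change of -0.53 ± 0.20 was not called either (adjusted p = 0.121). With the batch as a block Slc2a3 was called, at an adjusted p of 0.0369.

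Hexokinases hold glucose in the cell by phosphorylating it. Hk2, the inducible form bound to mitochondria, had 38.6, 29.0, 38.5 and 43.5 CPM in Jak2V617F HSC, against 66.2, 48.3, 56.8 and 50.3 CPM in WT HSC. Each Jak2V617F library was below each WT library, a log2 fold change of -0.57 ± 0.15 (adjusted p = 0.0286). The call was lost when WT HSC replicate 1 or 3 or Jak2V617F HSC replicate 1 or 2 was left out (adjusted p up to 0.113). Offsets for effective length lowered the size to -0.37 (adjusted p = 0.207). Hk1, the constitutive and most abundant form, had a log2 fold change of -0.01 ± 0.11. Hk3, a form abundant in myeloid cells, had 35.8, 38.0, 65.6 and 51.8 CPM in Jak2V617F HSC, against 45.9, 75.1, 78.7 and 84.3 CPM in WT HSC. Its log2 fold change of -0.57 ± 0.21 was not called (adjusted p = 0.108), and was called with the batch as a block (adjusted p = 0.0357).

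The next steps convert the hexose phosphate and split it. Gpi1 (the isomerase), Pfkl and Pfkm (liver and muscle phosphofructokinase) had log2 fold changes between -0.04 and 0.03 in Jak2V617F HSC. The platelet form Pfkp was at 0.20 ± 0.13 (adjusted p = 0.416). Aldoa, the main aldolase, was at -0.22 ± 0.09 (adjusted p = 0.168). Its low-abundance relative Aldoc had 18.5, 16.9, 16.99 and 13.2 CPM in Jak2V617F HSC, against 26.6, 29.0, 39.2 and 32.5 CPM in WT HSC, with no overlap, a log2 fold change of -0.96 ± 0.31 and an adjusted p of 0.0738. None of Pfkfb2, Pfkfb3 and Pfkfb4 was called, with log2 fold changes of -0.27, -0.18 and -0.97.

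Triose phosphate isomerase, Tpi1, had 402, 390.3, 441 and 369 CPM in Jak2V617F HSC, against 299, 309, 366 and 302 CPM in WT HSC. The groups were separated by a narrow margin, between Jak2V617F HSC replicate 4 and WT HSC replicate 3, with a log2 fold change of 0.33 ± 0.09 (adjusted p = 0.031). Pgk1, the X-linked kinase of the first ATP-yielding step, had 545, 443, 406 and 461 CPM in Jak2V617F HSC, against 353, 300.4, 304 and 289.5 CPM in WT HSC. Every Jak2V617F library was above every WT library, by a log2 fold change of 0.57 ± 0.11 (adjusted p = 0.00481). Pgam1, the mutase that follows, had 254, 239.8, 237 and 278 CPM in Jak2V617F HSC, against 213, 162, 192 and 175 CPM in WT HSC. It was higher in all 4 batches, by 0.44 ± 0.13 (adjusted p = 0.0407).

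The enolase Eno1 and pyruvate kinase Pkm, which end the pathway, were not called in HSC, at 0.18 ± 0.07 (adjusted p = 0.155) and 0.14 ± 0.09 (adjusted p = 0.41). Eno3, the muscle enolase, was at 0.31 ± 0.43. Gapdh was at 0.41 ± 0.20 (adjusted p = 0.240), and at 0.31 with the counts of its near-identical copies added (adjusted p = 0.254). The call of Pgk1 held in each of the 16 fits that left out 1 library of any group, HSC or MPP3 (adjusted p 0.00136 to 0.0192). Those of Tpi1 and Pgam1 did not, although their log2 fold changes stayed at 0.30 to 0.40 and 0.36 to 0.55 over the alternatives tried. Tpi1 lost its call without WT HSC replicate 1, 2 or 4 or Jak2V617F HSC replicate 1 (adjusted p up to 0.0877), and Pgam1 without WT HSC replicate 2, 3 or 4 or Jak2V617F HSC replicate 1 or 4 (adjusted p up to 0.121). Tpi1 was also not called when only the HSC libraries were fitted (adjusted p = 0.0588).

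The lactate dehydrogenases moved in opposite directions. Ldha lies at chr7:46841475-46855627 (plus strand) and Ldhb at chr6:142490249-142507957 (minus strand) in GRCm38. Ldha had 1607, 1960 and 1654 CPM in Jak2V617F HSC replicates 1 to 3 and 1762 CPM in replicate 4, against 1437, 1263, 1338 and 1234 CPM in WT HSC. The groups did not overlap, at a log2 fold change of 0.41 ± 0.11 (adjusted p = 0.0279). Ldhb had 159, 107, 161 and 149.7 CPM in Jak2V617F HSC, against 239, 234, 239 and 239.5 CPM in WT HSC. The WT libraries lay close together, and all 4 Jak2V617F libraries were below them, at a log2 fold change of -0.72 ± 0.15 (adjusted p = 0.00755). Ldhb kept its call under each of the 26 alternatives tried (adjusted p 0.000171 to 0.0464), whereas Ldha lost it without WT HSC replicate 2, 3 or 4 or Jak2V617F HSC replicate 2 or 4 (adjusted p up to 0.0813).

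Lactate leaves and enters cells through MCT1 (Slc16a1), and MCT4 (Slc16a3) mainly exports it. Slc16a1 had 54.6, 48.4, 41.7 and 43.5 CPM in Jak2V617F HSC, against 37.5, 21.7, 28.4 and 30.02 CPM in WT HSC. It was 1.60-fold higher with no overlap, a log2 fold change of 0.68 ± 0.16 (adjusted p = 0.0149). Without Jak2V617F HSC replicate 1 its adjusted p was 0.0572. Slc16a3 ran from 7.30 to 16.2 CPM in Jak2V617F HSC and from 8.71 to 19.5 CPM in WT HSC, and was not called (-0.44 ± 0.31, adjusted p = 0.467).

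At the gate to the mitochondrion, Pdha1, the X-linked alpha subunit of pyruvate dehydrogenase, had 241, 227, 199 and 227 CPM in Jak2V617F HSC, against 189, 176, 177 and 179 CPM in WT HSC. The groups did not overlap, yet the log2 fold change of 0.31 ± 0.10 was just short of a call (adjusted p = 0.060), and with the batch as a block it was called (adjusted p = 0.0262). Of the kinases that inhibit this enzyme, Pdk2 had 28.0, 25.6, 67.8 and 44.3 CPM in Jak2V617F HSC, against 48.5, 66.8, 69.2 and 78.5 CPM in WT HSC. Its log2 fold change was -0.67 ± 0.27 (adjusted p = 0.146), and -0.74 with the batch as a block (adjusted p = 0.0218). Pdk1, a HIF-1 target, was at -0.27 ± 0.25, Pdk3, the most abundant of the kinases in TPM, at 0.09 ± 0.13 and Pdk4 at -1.03 ± 0.96, and none of these was called.

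Glycogen phosphorylase transcripts changed in the muscle form, encoded by Pygm at chr19:6384399-6398459 (plus strand). Pygm had 10.5, 5.70, 19.4 and 12.7 CPM in Jak2V617F HSC, against 105, 62.6, 43.1 and 52.5 CPM in WT HSC. It was the gene with the largest fold change among the 8 called, 5.46-fold lower and lower in all 4 batches (adjusted p = 0.00161), and its call held under each of the 26 alternatives (adjusted p up to 0.0456). Pygl, the liver form, had 78.1, 75.2, 77.0 and 68.4 CPM in Jak2V617F HSC, against 105, 84.3, 96.5 and 103 CPM in WT HSC. These groups did not overlap, but its log2 fold change of -0.38 ± 0.12 was not called (adjusted p = 0.0598). Pygb, the brain form, was at 0.07 ± 0.13. On the synthesis side, glycogen synthase Gys1 (0.01 ± 0.15), the branching enzyme Gbe1 (-0.17 ± 0.20) and Ugp2, which makes the sugar donor UDP-glucose (-0.12 ± 0.16), were not called.

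Other transcripts moved between the same HSC groups. Summed counts of 20 DNA replication and mitosis genes ran from 5945 to 7724 CPM in Jak2V617F HSC and from 3508 to 4227 CPM in WT HSC, and all 20 were called higher. The summed HSC markers given above were lower in Jak2V617F HSC, with 5 of 10 called lower. Markers of other cell types also differed. T and NK cell markers summed to 139 to 174 CPM in Jak2V617F HSC and 65.6 to 97.2 CPM in WT HSC, with 1 of 6 tested called higher. B cell markers summed to 53.4 to 66.9 CPM in Jak2V617F HSC and 72.5 to 94.3 CPM in WT HSC, with 1 of 7 called lower. Stroma and endothelium markers summed to 90.8 to 124.5 CPM in Jak2V617F HSC and 140.7 to 165 CPM in WT HSC, with 1 of 8 called lower. None of these 3 sums overlapped between the groups. The median log2 fold change of the T and NK cell markers was nevertheless -0.03. That of the B cell markers was -0.42 and that of the stroma and endothelium markers -1.26. Megakaryocyte and platelet markers did, at 976 to 1469 CPM in Jak2V617F HSC and 763 to 1050 CPM in WT HSC, with 2 of 8 called higher. The part of cycling, of stem cell content or of these other cell types in the changes of the glucose genes was not tested. Jak2V617F HSC replicates 1 and 4 had lower mitochondrial shares of counts (1.16% and 0.924%) than replicates 2 and 3 (1.36% and 1.37%) and than the WT HSC libraries (1.45% to 2.03%). Without both, Ldhb and Pygm were still called. Over all genes, 266 of 15000 (1.77%) were then called, against 1035 of 14179 (7.3%) with them. The log2 fold changes of Tpi1, Pgk1, Pgam1, Ldha, Slc16a1 and Hk2 were then 0.38, 0.45, 0.36, 0.46, 0.62 and -0.71, and none of these was called (adjusted p 0.074 to 0.295).

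In MPP3 no gene of the set was called between Jak2V617F and WT, where 0.0635% of all genes tested were. The lowest adjusted p was that of Ldhb, 0.0518, and 12 of the 36 genes had an unadjusted p under 0.05, against 13.8% of all genes. DESeq2 called 3 higher (Pgk1, Ldha and Pgam1) and 2 lower (Ldhb and Aldoc), out of 386 genes called among the 14146 it tested (2.73%), and limma-voom called none. By edgeR with the batch as a block, Ldhb was called lower, with 0.578% of all genes called. Fold changes, though, had the sign they had in HSC for 7 of the 8 genes called there, and for 93.0% of all genes called there. Hk2 was the exception. The comparisons in HSC and in MPP3 share no libraries, but their libraries carry the same batch numbers, so they may not be independent.

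Ldhb had 52.6, 50.3, 69.5 and 71.4 CPM in Jak2V617F MPP3, against 118, 87.9, 96.4 and 129 CPM in WT MPP3. The groups did not overlap, and the log2 fold change was -0.82 ± 0.15. It was called with the batch as a block (adjusted p = 0.0208), and without Jak2V617F MPP3 replicate 3 or Jak2V617F HSC replicate 3. Ldha had 1767, 1505, 1234 and 1749 CPM in Jak2V617F MPP3, against 1249, 1191, 1119 and 1069 CPM in WT MPP3. Replicate 3 of the Jak2V617F group lay inside the WT range, and the log2 fold change was 0.43 ± 0.11 (adjusted p = 0.115). Pgk1 had 527, 447, 396 and 535 CPM in Jak2V617F MPP3, against 320.0, 351, 364 and 326 CPM in WT MPP3, with no overlap and a log2 fold change of 0.48 ± 0.11 (adjusted p = 0.0936). Without Jak2V617F MPP3 replicate 3, Ldha (0.55, adjusted p = 0.0119), Pgk1 (0.58, adjusted p = 0.0218) and Ldhb (-0.87, adjusted p = 0.0209) were all called; over all genes, 209 of 14515 (1.44%) were then called, against 9 of 14179 with it.

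The remaining MPP3 values were smaller or less even. Slc16a1 had 59.3, 55.2, 45.8 and 51.2 CPM in Jak2V617F MPP3, against 31.2, 37.2, 41.2 and 42.1 CPM in WT MPP3, at 0.48 ± 0.16 (adjusted p = 0.187). Pygm had 3.16, 3.02, 2.61 and 6.49 CPM in Jak2V617F MPP3, against 10.8, 11.9, 6.87 and 5.15 CPM in WT MPP3. Replicate 4 reversed the order of the other batches, and the log2 fold change was -1.18 ± 0.39 (adjusted p = 0.190). Ugp2, at -0.12 in HSC, was at 0.46 ± 0.16 in MPP3 (adjusted p = 0.208), higher in all 4 batches. Hk2 was at 0.09 ± 0.15. The 20 DNA replication and mitosis genes summed to 7024 to 8419 CPM in Jak2V617F MPP3 and 5950 to 6801 CPM in WT MPP3. These ranges did not overlap, but none of the 20 was called. The summed HSC markers given above did not overlap between the MPP3 groups either, with 1 of 10 called lower. The part of cycling or of stem cell content in the MPP3 values of the glucose genes was not tested.

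**Figure D2:**
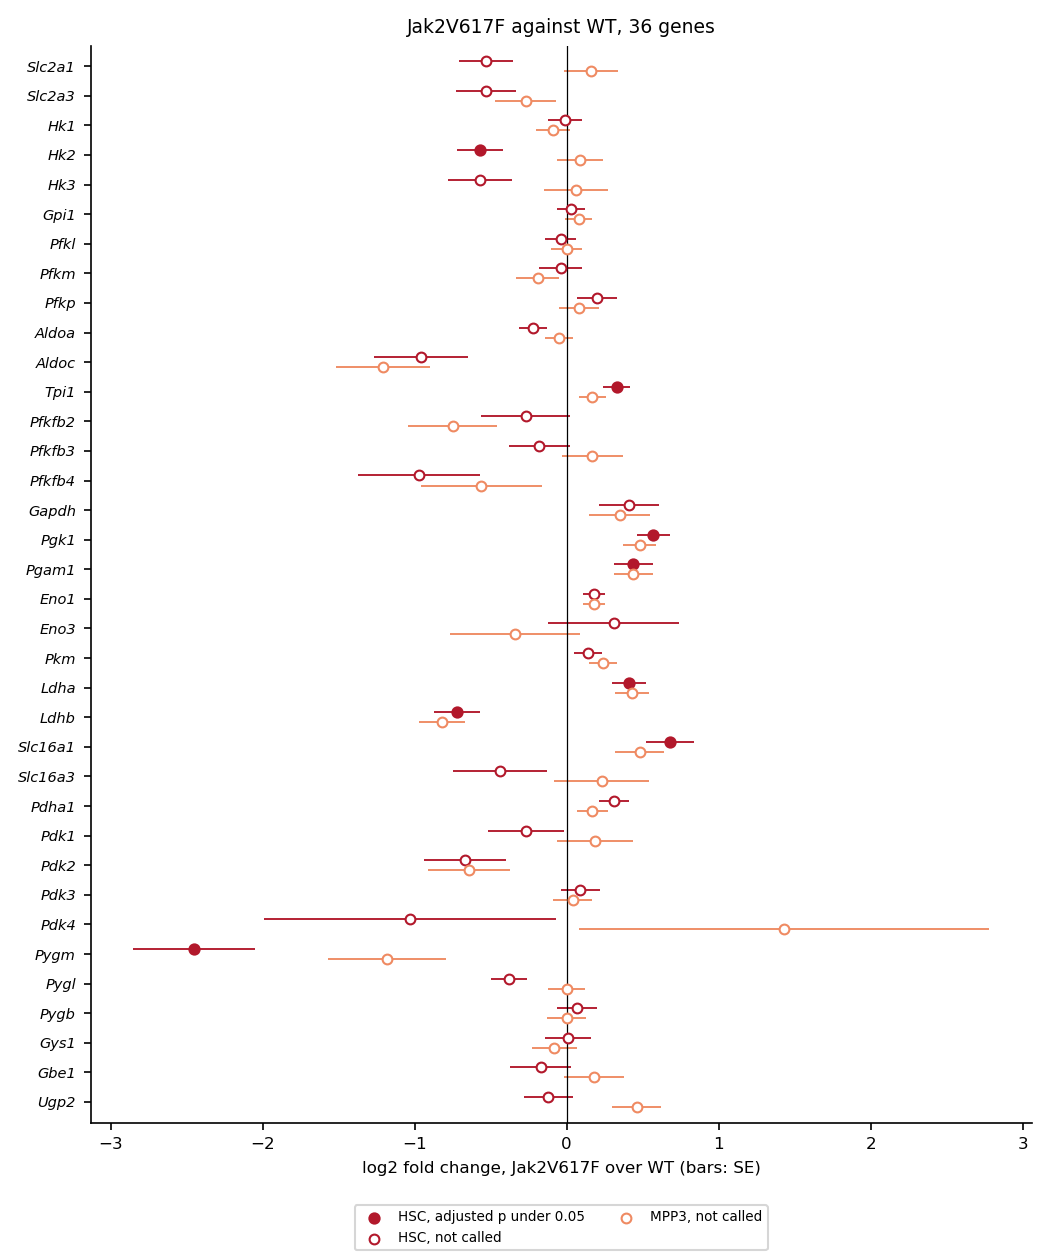
Log2 fold change of Jak2V617F over WT (horizontal axis, bars ± SE) for the 36 genes, in HSC (dark) and in MPP3 (light), with filled points for an adjusted p under 0.05. The 8 filled points are all in HSC; Ldhb lies at -0.72 in HSC and -0.82 in MPP3, and Pygm at -2.45 and -1.18.

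Whether the mutant effect differed between the cell types was tested as a difference of the effects, MPP3 minus HSC. No gene of the 36 was called by edgeR, limma-voom or DESeq2, where edgeR called 0.0423% of all genes. The lowest adjusted p was 0.435, for Hk2, whose effects differed by 0.66 ± 0.21, and 6 of the 36 genes had an unadjusted p under 0.05, against 6.93% of all genes. For Ldhb the difference was -0.10, with a 95% interval from -0.51 to 0.31. For Ldha it was 0.03 (-0.27 to 0.32) and for Pgk1 -0.09 (-0.39 to 0.22). For Pygm it was 1.27 (0.20 to 2.34), with an adjusted p of 0.658.

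Cell type was compared next, MPP3 against HSC, in each genotype. The same number of genes was called in both: 3 higher and 6 lower among WT cells and 3 higher and 6 lower among Jak2V617F cells, 9 of the 36 genes each time. Of all genes tested, 13.6% were called among WT cells (6.67% higher and 6.91% lower) and 8.36% among Jak2V617F cells (3.69% higher and 4.68% lower). Hk3 and Pgam1 were higher in MPP3 of both genotypes, and Slc2a3, Pfkp, Ldhb, Pdk4 and Pygm were lower in both. The WT comparison added Pdha1 (higher) and Slc2a1 (lower), and the Jak2V617F comparison Hk2 (higher) and Pfkfb2 (lower). Medians over the 36 genes were -0.11 among WT cells and 0.03 among Jak2V617F cells, against -0.005 and 0.002 over all genes.

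Hk3 showed the largest rise in MPP3. It had 224, 195, 308 and 286 CPM in Jak2V617F MPP3, against 35.8 to 65.6 CPM in Jak2V617F HSC, 5.30-fold higher (log2 2.41 ± 0.22, adjusted p = 1.2e-06). In WT MPP3 it had 243, 235, 214.5 and 279.9 CPM, against 45.9 to 84.3 CPM in WT HSC, 3.43-fold higher (log2 1.78 ± 0.21, adjusted p = 2.3e-05). Neither pair of groups overlapped. Pgam1 was higher by 0.77 ± 0.13 in both genotypes, with 366 to 499.7 CPM in Jak2V617F MPP3 against 237 to 278 CPM in Jak2V617F HSC, and 247 to 375 CPM in WT MPP3 against 162 to 213 CPM in WT HSC. It was called with an adjusted p of 0.000675 among Jak2V617F cells and 0.000516 among WT cells.

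Ldhb fell in MPP3, by a log2 fold change of 1.24 ± 0.15 in Jak2V617F cells and by 1.14 ± 0.15 in WT cells (adjusted p = 3.5e-05 and 6.8e-05). With the mutant effect this set 4 levels: means of 61.0 CPM in Jak2V617F MPP3, 108 CPM in WT MPP3, 144 CPM in Jak2V617F HSC and 238 CPM in WT HSC. The highest WT MPP3 library, at 129 CPM, was above the lowest Jak2V617F HSC library, at 107 CPM, so these neighbours overlapped while the others did not. Ldha was not called, at -0.16 ± 0.11 in Jak2V617F cells and -0.19 ± 0.11 in WT cells.

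Slc2a3 had 71.4, 73.1, 121 and 117 CPM in Jak2V617F MPP3, against 149 to 212 CPM in Jak2V617F HSC, a log2 fold change of -0.87 ± 0.20 (adjusted p = 0.00907). In WT MPP3 it had 115, 77.1, 126 and 144 CPM, against 226 to 291 CPM in WT HSC (-1.13 ± 0.20, adjusted p = 0.000985). Groups were separated in both. Pfkp had a log2 fold change of -0.77 ± 0.13 in Jak2V617F MPP3 (adjusted p = 0.000763) and of -0.65 ± 0.13 in WT MPP3 (adjusted p = 0.00227). Of 8 tested megakaryocyte and platelet markers, 7 were called lower in MPP3 of each genotype. They summed to 209 to 310 CPM in Jak2V617F MPP3 against 976 to 1469 CPM in Jak2V617F HSC, and to 179 to 244 CPM in WT MPP3 against 763 to 1050 CPM in WT HSC. Their part in the Pfkp level was not tested.

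Pygm had a log2 fold change of -1.66 ± 0.40 between Jak2V617F MPP3 and Jak2V617F HSC (adjusted p = 0.013) and of -2.93 ± 0.41 between WT MPP3 and WT HSC (adjusted p = 0.000116), and MPP3 was lower in all 4 batches of each. The Jak2V617F groups touched, with 6.49 CPM in MPP3 replicate 4 and 5.70 CPM in HSC replicate 2. By limma-voom that comparison was not called (adjusted p = 0.0995). Pdk4 was close to absent in MPP3: the 4 Jak2V617F MPP3 libraries held 6 counts in all, against 334 in Jak2V617F HSC, and the 4 WT MPP3 libraries held 2, against 649 in WT HSC. The MPP3 counts were 1.80% of those in Jak2V617F HSC (95% interval 0.655% to 3.95%, exact binomial) and 0.308% of those in WT HSC (0.0372% to 1.12%), unscaled for depth and with counting error only. Both were called (adjusted p = 0.00681 and 0.000784), and a single library, WT HSC replicate 2, held the highest level, 9.27 CPM. It held 344 of the 649 counts, and the other 3 WT HSC libraries 305. All 6 Jak2V617F MPP3 counts were in replicate 2 and both WT MPP3 counts in replicate 4.

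The 4 genes called in 1 genotype only were close to the threshold. Slc2a1 in WT cells (-0.56 ± 0.18, adjusted p = 0.0446) lost its call in 11 of the 16 fits that left out 1 library, compared or not, with an adjusted p up to 0.159. Hk2 in Jak2V617F cells (0.50 ± 0.15, adjusted p = 0.0481) lost it in 15 of 16, and also with RLE size factors (adjusted p = 0.0553). Pfkfb2 in Jak2V617F cells (-0.98 ± 0.29, adjusted p = 0.0444) lost it in 10, and Pdha1 in WT cells (0.35 ± 0.10, adjusted p = 0.0235) in 4. These genes are not shown to differ between the genotypes, since no difference of effects was called. Without Jak2V617F HSC replicates 1 and 4, 3 genes remained lower in Jak2V617F MPP3 (Pfkp, Ldhb and Pdk4), Slc2a3 having an adjusted p of 0.131 and Pygm of 0.0548. Of all genes, 5.17% were then called between Jak2V617F MPP3 and Jak2V617F HSC, against 8.36% with both libraries.

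**Figure D3:**
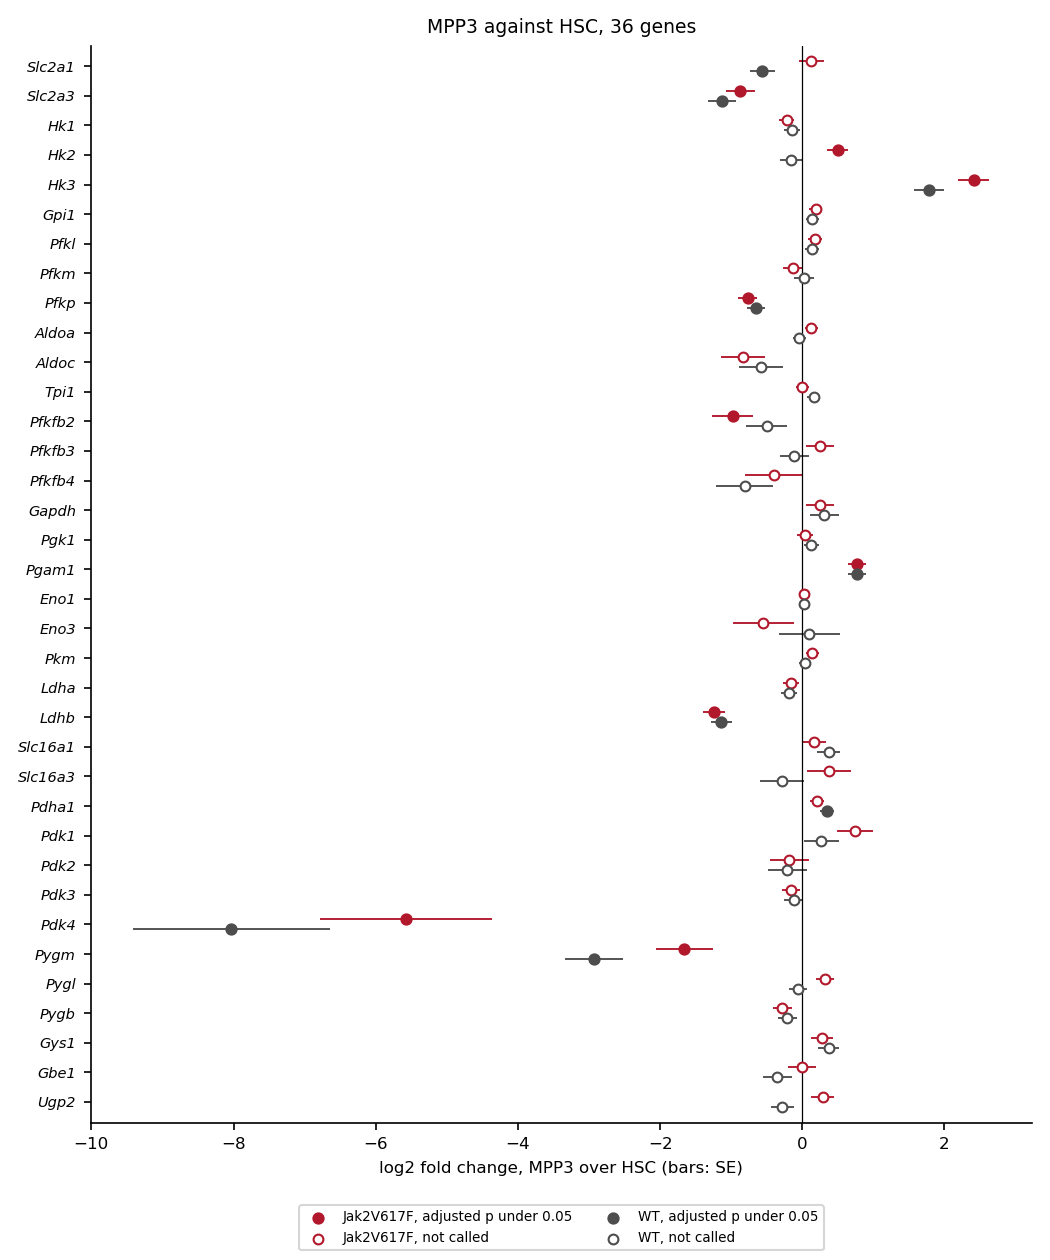
Log2 fold change of MPP3 over HSC (horizontal axis, bars ± SE) for the 36 genes in Jak2V617F cells (red) and WT cells (grey), with filled points for an adjusted p under 0.05. Hk3 lies farthest to the right, at 2.41 and 1.78, and Pdk4 farthest to the left, where MPP3 libraries held almost no counts.

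Isoenzyme use was described as the share of each gene in its family, from counts divided by effective length, as mean ± SD over 4 libraries. Of 84 exact two-sided permutation tests (21 shares in 4 comparisons), 25 had the smallest p that 4 against 4 libraries can give, 0.0286, and none passed Benjamini-Hochberg adjustment over the 84 (smallest adjusted p = 0.096). By comparison these were 5 between Jak2V617F HSC and WT HSC, 2 between Jak2V617F MPP3 and WT MPP3, 7 between WT MPP3 and WT HSC and 11 between Jak2V617F MPP3 and Jak2V617F HSC. With p bounded at 0.0286, a share could pass only if many more of the 84 tests reached that bound, so not passing does not measure the size of a difference. Shares of a family add up to 100%, so they do not move independently.

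Ldhb made up 9.02% ± 2.04 of the Ldha and Ldhb pair in Jak2V617F HSC and 17.7% ± 0.985 in WT HSC. In MPP3 it made up 4.58% ± 1.28 in Jak2V617F cells and 10.1% ± 1.89 in WT cells. Neither mutant group overlapped its WT group (exact p = 0.0286 in both cell types, adjusted p = 0.096), and the mean share was lowest in Jak2V617F MPP3, where 1 library lay inside the Jak2V617F HSC range.

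Hexokinase shares separated the cell types. Hk1 held 62.9% ± 1.93 in Jak2V617F MPP3 and 64.5% ± 4.01 in WT MPP3, against 87.0% ± 1.32 in Jak2V617F HSC and 81.9% ± 2.47 in WT HSC. Hk3 held 29.6% ± 3.84 in Jak2V617F MPP3 and 28.3% ± 3.46 in WT MPP3, against 6.67% ± 1.14 in Jak2V617F HSC and 10.1% ± 2.92 in WT HSC. Hk2 had mean shares between 6.38% and 8.01% in the 4 groups. The Hk1 level itself was not called between MPP3 and HSC, at -0.22 ± 0.11 among Jak2V617F cells and -0.14 ± 0.11 among WT cells.

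Among the phosphorylases, Pygm held 9.36% ± 4.05 in Jak2V617F HSC and 29.6% ± 6.61 in WT HSC, and 3.37% ± 1.21 in Jak2V617F MPP3 and 6.17% ± 1.84 in WT MPP3. Pygb held 46.2% ± 4.86 in Jak2V617F HSC and 30.2% ± 3.44 in WT HSC, without overlap (exact p = 0.0286, adjusted p = 0.096), although its level was not called. In MPP3 Pygl was the leading form, at 56.9% ± 4.50 in Jak2V617F cells and 54.5% ± 3.74 in WT cells. WT HSC had the most even use of the 3 forms, with mean shares of 29.6% (Pygm), 30.2% (Pygb) and 40.2% (Pygl).

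Phosphofructokinase was mainly Pfkl, at 72.3% ± 0.693 in Jak2V617F MPP3 and 70.3% ± 4.26 in WT MPP3, against 61.8% ± 1.30 in Jak2V617F HSC and 63.0% ± 3.47 in WT HSC. Pfkp had the opposite order, with 13.7% ± 1.80 in Jak2V617F MPP3 and 13.6% ± 1.41 in WT MPP3, against 23.2% ± 2.20 in Jak2V617F HSC and 21.0% ± 2.53 in WT HSC. Slc2a3 held 72.3% of the glucose carrier pair in Jak2V617F HSC and in WT HSC alike, and 57.4% ± 7.18 in Jak2V617F MPP3 and 63.9% ± 6.54 in WT MPP3. Aldoc and Eno3 were minor forms, at 2.12% or less of their pairs in each group. Pfkfb2 held 10.5% ± 2.45 of its family in Jak2V617F MPP3 and 18.6% ± 3.86 in WT MPP3, without overlap.

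**Figure D4:**
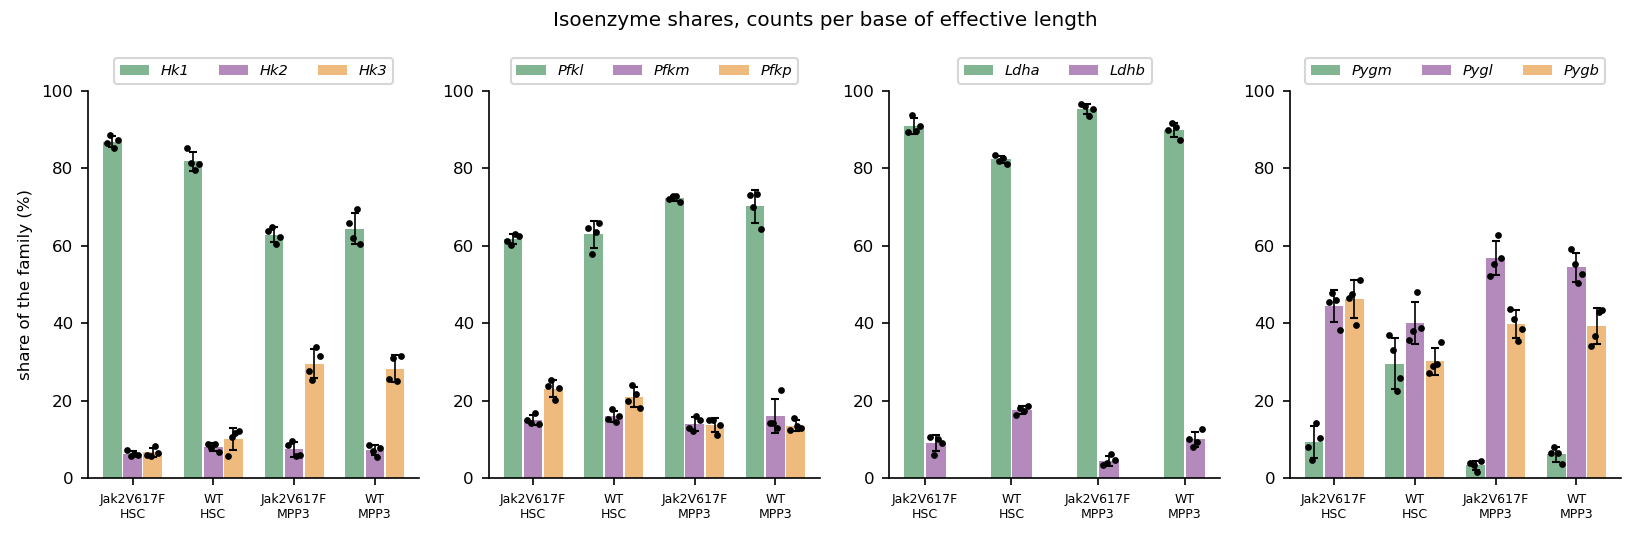
Share of each isoenzyme in its family (vertical axis, percent of counts per base of effective length) for hexokinase, phosphofructokinase, lactate dehydrogenase and glycogen phosphorylase in the 4 groups; bars are means, lines ± SD and points libraries (n = 4). The Ldhb bar is lowest in Jak2V617F MPP3, at 4.58%, the Hk3 bars are at 29.6% and 28.3% in the MPP3 groups, and the Pygm bar is highest in WT HSC, at 29.6%.

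HIF-1 binds a core of 5 bases, ACGTG or GCGTG, and the upstream regions of the members were searched for both on either strand (CACGT and CACGC are the reverse complements). The palindrome CACGTG holds the first core on each strand and was counted once, as were other overlapping matches; it is also the E-box that MYC and USF proteins bind. RefSeq (GRCm38.p6) gave a window for 35 of the 36 genes, all but Slc2a3, and the 250 bases before the first listed start of each gene were used. A core was present in 28 of the 35 (80.0%), against 55.8% of the 10396 tested genes with a window and 38.6% of all 27025 genes in the table. At least 2 were present in 45.7% of the 35, against 23.6% of the tested genes. Among the genes called in HSC, Tpi1 had 0, Ldhb 1, Pgk1, Hk2 and Pygm 2 each, and Ldha, Pgam1 and Slc16a1 3 each. A match is a string of letters and not a binding site, and binding was not measured. The windows of the oppositely moving pair Ldha and Ldhb, of Pgk1 and of Pygm follow, 5′ to 3′ on the gene's strand with the cores in capitals. They lie at chr7:46845554-46845803 (Ldha, plus strand, inside the longer GENCODE gene), chr6:142507958-142508207 (Ldhb, minus strand), chrX:106186850-106187099 (Pgk1, plus strand) and chr19:6384158-6384407 (Pygm, plus strand).
Ldha: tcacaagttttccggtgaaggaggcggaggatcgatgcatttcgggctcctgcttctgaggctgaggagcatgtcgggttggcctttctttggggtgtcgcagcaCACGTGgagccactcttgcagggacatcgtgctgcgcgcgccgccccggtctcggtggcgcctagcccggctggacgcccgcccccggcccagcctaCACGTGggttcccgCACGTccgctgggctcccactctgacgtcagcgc
Ldhb: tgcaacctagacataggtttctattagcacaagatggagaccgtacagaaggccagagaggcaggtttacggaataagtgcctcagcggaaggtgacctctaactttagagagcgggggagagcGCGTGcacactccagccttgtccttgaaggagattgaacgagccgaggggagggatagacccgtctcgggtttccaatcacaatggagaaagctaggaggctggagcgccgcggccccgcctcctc
Pgk1: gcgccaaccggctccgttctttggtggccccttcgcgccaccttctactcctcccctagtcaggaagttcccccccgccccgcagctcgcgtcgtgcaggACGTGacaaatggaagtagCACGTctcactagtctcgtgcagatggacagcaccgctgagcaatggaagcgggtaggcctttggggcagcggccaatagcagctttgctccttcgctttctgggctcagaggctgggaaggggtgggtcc
Pygm: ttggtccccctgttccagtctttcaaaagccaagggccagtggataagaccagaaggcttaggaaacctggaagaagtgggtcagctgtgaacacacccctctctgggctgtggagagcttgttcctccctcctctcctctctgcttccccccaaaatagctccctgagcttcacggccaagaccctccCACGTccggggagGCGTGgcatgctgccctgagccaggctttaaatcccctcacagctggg
The Ldha window holds CACGTG in 2 places and another core nearer the start, and the Ldhb window a single GCGTG. Cores were present upstream of genes that rose, of genes that fell and of 55.8% of the tested genes with a window. Their part in the changes was not tested.

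Neighbouring pathways were described from lists of genes outside the 36, by how many passed the test. Of all genes tested, 4.56% were called higher and 2.74% lower in Jak2V617F HSC than in WT HSC. Of 14 tested glycolysis and sugar-entry isoenzymes, Galk1, which phosphorylates galactose, was the 1 call in HSC, with 199.8 ± 15.2 CPM in Jak2V617F HSC and 138 ± 16.6 CPM in WT HSC (log2 fold change 0.54 ± 0.13, adjusted p = 0.0204). Of 13 genes that carry pyruvate into the citric acid cycle, 2 rose and none fell in Jak2V617F HSC. They were Dld, a subunit of pyruvate dehydrogenase (0.48 ± 0.12, adjusted p = 0.0252), and citrate synthase Cs (0.32 ± 0.09, adjusted p = 0.0459). This pyruvate list had a median log2 fold change of 0.17 in HSC and 0.24 in MPP3, against -0.059 and -0.021 over all genes tested. The isoenzyme list had 0.02 in both, and the pentose phosphate list 0.08 in HSC and 0.09 in MPP3. None of 11 pentose phosphate genes was called between Jak2V617F HSC and WT HSC.

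Of 11 other tested carriers and lactate genes, Ldhd, the mitochondrial D-lactate dehydrogenase, fell in Jak2V617F HSC, with 12.1 ± 1.54 CPM against 27.1 ± 11.3 CPM in WT HSC (-1.16 ± 0.32, adjusted p = 0.0352). Of 18 other glycogen genes, Gaa, the lysosomal enzyme that degrades glycogen, was the 1 call in HSC. It had 254 ± 50.5 CPM in Jak2V617F HSC and 371 ± 17.8 CPM in WT HSC (-0.55 ± 0.12, adjusted p = 0.0095). No gene of 10 hypoxia regulators was called there. Of 17 hypoxia targets outside glycolysis, 1 rose (Higd1a, 0.65 ± 0.13, adjusted p = 0.00559) and 3 fell: the collagen hydroxylase P4ha1 (-1.16 ± 0.19, adjusted p = 0.00161), the stress gene Ddit4 (-1.44 ± 0.38, adjusted p = 0.0277) and Rora (-1.13 ± 0.29, adjusted p = 0.0266). The lists of 4 gluconeogenesis genes and those above had no call between Jak2V617F MPP3 and WT MPP3. In HSC the median log2 fold change was -0.19 for the carriers, -0.09 for the glycogen genes and -0.02 for the gluconeogenesis genes. It was -0.21 for the hypoxia regulators and -0.26 for the hypoxia targets. In MPP3 these medians were -0.21, -0.14, 0.06, -0.09 and -0.09.

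Between cell types, 3 of 11 pentose phosphate genes were higher in Jak2V617F MPP3 than in Jak2V617F HSC and 2 in WT MPP3 than in WT HSC, with none lower. Of all genes tested, 3.69% were called higher and 4.68% lower in MPP3 among Jak2V617F cells. Among WT cells these shares were 6.67% and 6.91%. Transaldolase, Taldo1, was called in both genotypes (0.49 ± 0.10 among Jak2V617F cells and 0.55 ± 0.10 among WT cells), and so was transketolase, Tkt (0.29 ± 0.09 and 0.27 ± 0.09). Prps2, which makes the activated pentose of nucleotide synthesis, was called among Jak2V617F cells (0.46 ± 0.12, adjusted p = 0.0206). Emb, the partner protein of MCT carriers, was higher in MPP3 by 1.5 ± 0.14 among Jak2V617F cells and 1.44 ± 0.14 among WT cells (adjusted p = 1.9e-06 and 2.8e-06). Ldhd was lower in WT MPP3 (-1.26 ± 0.32, adjusted p = 0.0141). Slc2a6, a carrier of low level, averaged 1.82 CPM in Jak2V617F MPP3 and 0.997 CPM in WT MPP3, against 0.0833 CPM in Jak2V617F HSC and no counts in WT HSC. The mitochondrial pyruvate carrier Mpc1 was higher by 0.37 ± 0.09 and 0.31 ± 0.09.

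Fbp1, the gluconeogenic enzyme that opposes phosphofructokinase, averaged 74.6 CPM in Jak2V617F MPP3 against 30.2 CPM in Jak2V617F HSC (1.30 ± 0.23, adjusted p = 0.00141) and 73.0 CPM in WT MPP3 against 34.8 CPM in WT HSC (1.07 ± 0.23, adjusted p = 0.00482). G6pc3 was also called among WT cells (0.26 ± 0.08, adjusted p = 0.046). Egln3, an oxygen-sensing hydroxylase, was higher in Jak2V617F MPP3 (1.76 ± 0.30, adjusted p = 0.00091). Neuronal enolase Eno2 averaged 1.70 CPM in Jak2V617F HSC and 5.60 CPM in WT HSC and was under 0.1 CPM in MPP3 of both genotypes. Pklr, the liver and red cell pyruvate kinase, averaged 3.40 CPM in Jak2V617F MPP3 and 15.5 CPM in WT MPP3, against 0.0333 CPM in Jak2V617F HSC and 0.541 CPM in WT HSC. Erythroid markers summed to 85.5 to 248 CPM in Jak2V617F MPP3, 202 to 419.7 CPM in WT MPP3, 137 to 334 CPM in Jak2V617F HSC and 88.8 to 452 CPM in WT HSC, and their part in the Pklr level was not tested. Among WT cells, Phkb (-0.58 ± 0.15) and Ppp1r3b (-0.87 ± 0.24), which act in the control of glycogen, were lower in MPP3, as was Gaa (-0.52 ± 0.12). Bhlhe40 was lower (-2.32 ± 0.68) and Higd1a higher (0.44 ± 0.13) in WT MPP3.

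Myeloid markers were looked at beside Hk3. Neutrophil markers, of which 9 of 10 were tested, summed to 7.84 to 217 CPM in Jak2V617F MPP3 and 10.98 to 301 CPM in WT MPP3, against 4.34 to 51.2 CPM in Jak2V617F HSC and 24.3 to 73.8 CPM in WT HSC, and these ranges overlapped. Macrophage and monocyte markers summed to 269.6 to 313 CPM in Jak2V617F MPP3 and 313 to 439 CPM in WT MPP3, against 254 to 408 CPM in Jak2V617F HSC and 339 to 406 CPM in WT HSC. In each genotype 1 of 9 neutrophil markers and 3 of 10 macrophage and monocyte markers were called higher in MPP3, and none lower. B cell, T and NK cell, and stroma and endothelium markers had higher sums in MPP3 of both genotypes, without overlap with the HSC sums given above. They were 72.0 to 126, 488 to 557 and 254 to 333 CPM in Jak2V617F MPP3. In WT MPP3 they were 121 to 239, 346.5 to 509 and 233 to 318 CPM. In each genotype 5 of 7, 1 of 6 and 2 of 8 tested were called higher. Among Jak2V617F cells 1 stroma and endothelium marker was called lower. The median log2 fold changes of these lists, in the same order, were 7.78, 0.91 and -0.47 among Jak2V617F cells. Among WT cells they were 6.73, 1.79 and -1.06. The stroma and endothelium sums thus rose while the median of that list was below 0. The part of any of these cell types in the Hk3 level or in other differences between MPP3 and HSC was not tested.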

How the data were processed

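RNA was sequenced from 16 libraries of sorted bone marrow cells, 4 in each of 4 groups. The submitters' processing notes name cutadapt 4.0, FastQC, HISAT2 and Salmon with GRCm38 (mm10); no settings, transcript set or strand setting are stated. The deposited gene tables of the authors hold Salmon's estimated counts (expected counts per gene, not normalized), which were rounded to whole numbers and tested. They also hold the authors' TPM, used for levels between genes, and, per the file headers, effective lengths in bases, used for shares. Rows named as single transcripts (1910 of 31716, 0.697% to 0.796% of counts) were left out, and none belongs to the 36 genes. Symbols, coordinates and overlaps came from GENCODE M21.

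Genes kept by filterByExpr (14179) were tested with edgeR 4.0.16 in R 4.3.3 (robust quasi-likelihood, TMM, 1 model with a coefficient per group over all 16 libraries, Benjamini-Hochberg). The pipeline was tested on simulated data. Changes planted there were larger than those of most genes called in HSC, so the simulation does not cover changes of that size. Family shares were tested by exact permutation. Near-identical copies were transcripts sharing at least 50% of their 31-base words with a member. Alternatives were DESeq2 1.42.0, limma-voom (limma 3.58.1), the batch as a block, effective-length offsets, RLE size factors, no filter on low counts, transcript rows counted, only the groups compared, each library left out, Jak2V617F HSC replicates 1 and 4 left out and, chosen after seeing the data, near-identical copies added. Batch pairs the libraries per the labels: deviations from the group mean correlated between libraries of the same number with r from -0.05 to 0.27 over 24 pairs, and 18 matched best with their own number. Between HSC and MPP3 libraries of the same genotype and number, r was 0.14 to 0.27, and each matched best with its own number. Replicates of a group correlated with r from 0.971 to 0.988. All 36 genes are named; of the other lists, up to 3 called genes with the smallest adjusted p per comparison. The genes, lists and tests were chosen with earlier results of these data known. The interval of the Pdk4 counts covers counting error only; those of differences in fold change are normal intervals from the SE, which was computed from the fold change and its quasi-likelihood F.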

Additional observations from a re-analysis of the deposited data

Results flagged for a closer look

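Dixon's criterion at 95% was applied to 228 group values of the 36 genes and their shares. In 21 of them a library stood apart from the other 3 of its group. For independent, normally spread values chance alone gives about 1 in 20. Shares come from the same counts as CPM, and Pdk4 had counts in a single MPP3 library of each genotype. That rate is therefore a rough guide.

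In Jak2V617F HSC, replicate 3 was the highest for Pfkm (112.6 CPM) and Gys1 (40.78 CPM). In Jak2V617F MPP3, replicate 2 was the lowest for Slc2a1 (37.05 CPM) and Gys1 (29.06 CPM) and the highest for Pdk4 (0.1675 CPM, and 0.0873% of the kinases). Replicate 4 was the highest for Pygm (6.49 CPM), replicate 1 the lowest for the Slc2a3 share (46.62%) and replicate 3 the lowest for the Pdk3 share (53.2%).

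In WT HSC, replicate 2 was the lowest for Aldoa (1070.0 CPM) and Ldhb (233.9 CPM, against 238.8 to 239.5 CPM in the others) and the highest for Pdk4 (9.269 CPM and a share of 5.055%). Replicate 3 was the highest for Tpi1 (366.3 CPM) and Pkm (2037 CPM). Replicate 1 was the highest for Pdk3 (97.48 CPM) and the lowest for the Slc16a3 share (24.08%). In WT MPP3, replicate 2 was the lowest for Aldoa (965.1 CPM), and replicate 4 was the highest for the Pfkm share (22.78%) and for Pdk4 (0.04903 CPM, and 0.01875% of the kinases).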

How the results depend on the processing

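Under 26 alternative settings, 4519 values of single genes kept their side of the threshold, 84 lost the call, 40 gained one and 0 called values reversed; 94 values without a call in either fit changed sign. With the replicate number as a block, 6 members were lower in Jak2V617F HSC and 1 (Ldhb) in Jak2V617F MPP3. No other count of calls moved by over 1.5 times under the block. Of all genes, the block called 9.83% between the HSC groups (7.3% in the main fit) and 0.578% between the MPP3 groups (0.0635% in the main fit). DESeq2 gave 7 lower in Jak2V617F HSC, and 3 higher and 2 lower in Jak2V617F MPP3. It called 13.3% of all genes between the HSC groups and 2.73% between the MPP3 groups. Effective-length offsets gave 1 lower in Jak2V617F MPP3, with 0.113% of all genes called there. Without Jak2V617F HSC replicates 1 and 4, 0 members were higher in Jak2V617F HSC than in WT HSC, and 3 were lower in Jak2V617F MPP3 than in Jak2V617F HSC. Of all genes, 1.77% and 5.17% were called in these 2 comparisons. Leaving out 1 library at a time gave 2 to 6 higher and 2 to 5 lower in Jak2V617F HSC, and 0 to 2 higher and 0 to 1 lower in Jak2V617F MPP3. These fits called 4.18% to 9.74% of all genes between the HSC groups and 0.0069% to 1.44% between the MPP3 groups. The cause was not tested, except that fits without a library hold fewer samples. No share passed adjustment per base, of CPM or of deposited TPM, which a smallest exact p of 0.0286 makes hard to reach over 84 tests. Sign flips of 4 batches cannot give a p below 0.125. Genes of a few CPM, such as Pdk4, Pfkfb2 and Eno3, have wide errors at this depth.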
